A study of Mus musculus with 36 samples.

Results

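Gene expression in whole blood was compared between mice that received the same neutron dose with and without x-rays. The 2 groups held 12 of the 36 arrays of the series, with 6 mice per group and 1 array per mouse, and were taken by their labelled exposure. All mice were male C57BL/6J, were 8 to 10 weeks old at irradiation, and were sacrificed on day 7. In the 25% mixed field, mice received 0.75 Gy of neutrons together with x-rays and a small photon part from the neutron source, for a total of 3 Gy. In the neutron alone group, mice received 0.75 Gy of neutrons and no x-rays. The labels give the neutron percentage of this group as 100 and the methods give it as 83, because the neutron source also emits photons. The added x-rays and the higher total dose cannot be told apart by this comparison. Blood was drawn by cardiac puncture into a lysis solution, excess globin RNA was removed, and the labelled RNA was hybridized to single-colour Agilent arrays. The other 24 arrays held sham-irradiated controls and mice that received 3 Gy of x-rays, of a 5% mixed field, or of a 15% mixed field. They shared no slide and no scan session with these 12 arrays, so their levels are given below as a description.

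Blood RNA is a mixture of the RNA of lymphocytes, granulocytes, monocytes, platelets, and young red cells. B lymphocytes are among the blood cells most readily killed by radiation, since p53 drives them into apoptosis after DNA breaks, and their return depends on new cells made in the bone marrow. A B cell is recognised by its antigen receptor, an immunoglobulin held in the membrane with the CD79A and CD79B signalling chains. Young red cells, or reticulocytes, still hold RNA and ribosomes and lose them as they mature, so their share of blood RNA follows the output of the marrow. Neutrons lose their energy in dense tracks of recoil protons, whereas x-rays spread theirs more evenly. In bulk blood, fewer cells of a type and less RNA per cell cannot be told apart.

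A filter on background kept 21484 of 39429 probes, a filter on fold then kept 17954, and with only the brightest probe per gene 15077 genes were tested. Levels are log2 intensities relative to the median of all probes on the array, so a level of 0 is that of the median probe, and differences are the 25% mixed field minus neutron alone. A gene was called in the limma fit of the 12 arrays when its unadjusted p was below 0.001 and its p after Benjamini-Hochberg adjustment below 0.05. The number of probes well above background was between 15786 and 21106 in the 25% mixed field and between 16455 and 18995 after neutron alone. The means of 19389 ± 1956 and 17011 ± 990 (SD, n = 6) gave an exact two-sided permutation p of 0.0346, or 0.104 after adjustment over 3 such measures. The 25% mixed field replicates 1 to 4 lay on 1 slide, replicates 5 and 6 lay with neutron alone replicates 1 and 2 on another, and neutron alone replicates 3 to 6 lay on the third. A fit within the slide that held both groups thus rests on 2 arrays per group, and a count of 0 there can reflect its small size.

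Transcripts made by the liver were abundant on some of these arrays and moved with the groups. A list of 32 hepatocyte genes was drawn up after the data had been seen. Well above background were 31 to 32 of them on the arrays of the 25% mixed field and 9 to 28 on those of neutron alone. Their mean level over the 29 genes tested was 10.80, 6.63, 8.06, 11.17, 6.96, and 7.68 in replicates 1 to 6 of the 25% mixed field. After neutron alone it was -0.01, 0.35, 3.12, 4.24, 0.84, and 0.66, so that every array of the first group lay above every array of the second. The log2 summed level of the list was 12.96 to 17.22 against 8.35 to 10.54. All 29 genes were called higher, by a median of 7.36 on the log2 scale. Alb, which encodes albumin, lay between 9.97 and 14.31 in the 25% mixed field and was well above background on 2 of the 6 arrays of neutron alone. The other groups spanned both extremes, from -0.30 to 9.05 in the controls, -0.07 to 9.62 after x-rays, 0.22 to 11.61 at 5%, and 4.08 to 11.75 at 15%.

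Genes were marked as following the hepatocyte level when they rose with it over the other 24 arrays. Of all genes tested 7.32% followed it, against 39% of the genes called higher (431 of 1105) and 0 of the 604 genes called lower. As the hepatocyte level was higher in the 25% mixed field, a gene that rose with it was unlikely to be called lower. Genes that fell with it were 110 of the 604 (18.2%), against 16.5% of all genes, and 8 of the 34 B-cell genes described below. All of the 12 largest rises, among called genes well above background on the 12 arrays without overlap, followed it. Among them were Mup2 (7.27), a major urinary protein, Apoc1 (7.01), an apolipoprotein, Cyp2e1 (4.81), a cytochrome P450, and the glutathione transferase Gstt1 (5.86). The part that liver RNA played in the results that follow was not tested, and the main ones are given also without the 2 arrays richest in these transcripts, 25% mixed field replicates 1 and 4. Some are also given with the hepatocyte level as a covariate, a fit that called 57 genes in all. The groups did not overlap in that level, so this fit can hardly separate it from exposure, and a loss of calls there can reflect that. Heart muscle genes were well above background in 9 of 12 cases on 25% mixed field replicate 6 and in 1 to 3 on every other of the 12 arrays. Of the 3 heart genes tested, Myl2, Myl3, and Nppa, none was called, and Myl2 stood at 6.32 on that array.

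**Figure D1:**
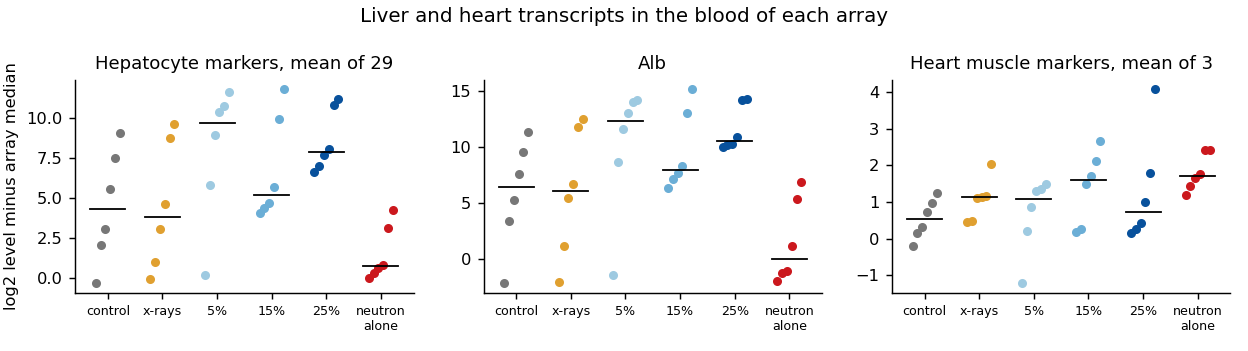
Mean log2 level, relative to the array median, of 29 hepatocyte genes, of Alb, and of 3 heart muscle genes, with 1 point per array in 6 groups of 6. Every array of the 25% mixed field lies above every array of neutron alone in the hepatocyte mean, and 25% mixed field replicate 6 stands apart in the heart muscle mean at 4.07.

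Of the 15077 genes, 1709 were called, or 11.3%. Of these 1105 were higher in the 25% mixed field (7.33%) and 604 were lower (4.01%), while the median difference over all genes was -0.06. At an adjusted p below 0.05 alone the count was 3919. Leaving out the genes that followed the hepatocyte level gave 674 higher and 604 lower. Among those, 61 were higher and 126 lower by more than 2 on the log2 scale. The split between higher and lower depended on how the arrays were scaled. Centring on the spike-in RNAs moved the median over all genes to 1.01 and left 36 genes called lower of 3772 called, so each direction given here is relative to the median gene of the array.

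**Figure D2:**
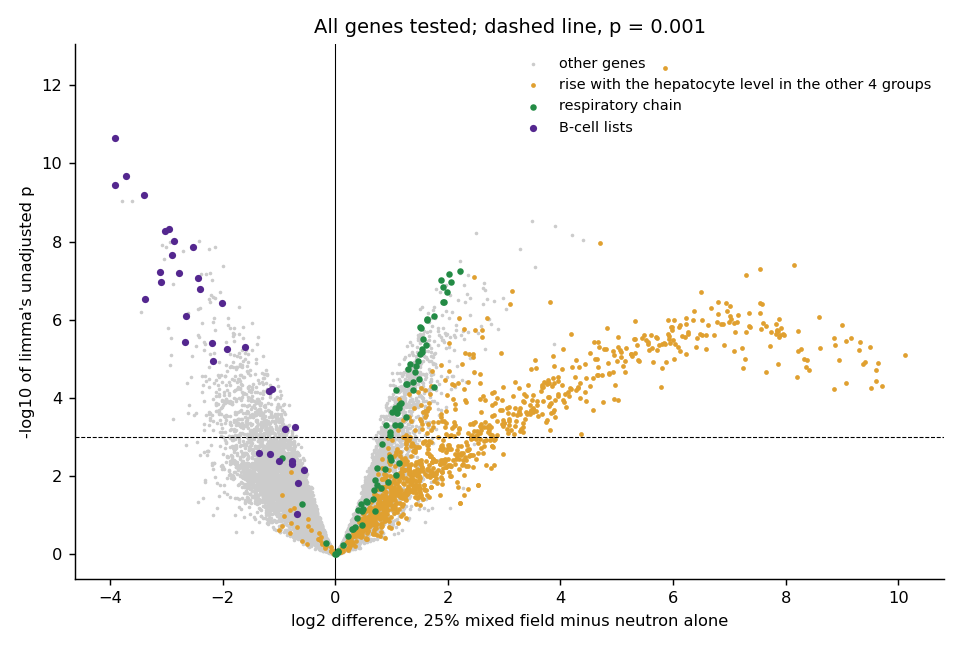
Difference of each of 15077 genes between the 25% mixed field and neutron alone on the log2 scale (x axis) against -log10 of the unadjusted p (y axis). Genes that followed the hepatocyte level are orange and lie on the right, respiratory chain genes are green and lie mostly on the right, and the genes of the 3 B-cell lists are purple and all lie to the left of 0.

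Genes of B cells were lower in the 25% mixed field than after neutron alone. The 3 lists of B-cell genes held 34 tested members, of which 26 were called lower and 0 higher (76.5%, against 4.01% of all genes called lower), with a median difference of -2.30. The lists were drawn up with earlier results of these data known, so these shares are a description and not a test. All 34 lay below 0, and for 27 of them the groups did not overlap, where 3.56% of all genes were lower without overlap (12.8% in either direction, 9.22% higher). Of the antigen receptor complex and its co-receptors, 10 of 11 genes were called, with a median of -2.66. Of the BAFF receptors, Fc receptors, and other surface proteins, 10 of 12 were called, with a median of -2.70. This list also counted Chst3, an enzyme that the paper names as changed in all exposures. Of the B-cell transcription factors, 6 of 11 were called, with a median of -1.18.

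Vpreb3, which encodes a protein related to the surrogate light chain of the immature receptor, lay at 3.21 to 4.16 in the 25% mixed field (median 3.68) and at 7.03 to 7.91 after neutron alone (median 7.31). The difference was -3.72 ± 0.23 (SE, n = 6 per group, limma adjusted p = 1.077e-06), or 13.2-fold. Cd79a, a signalling chain of the receptor, lay at 4.05 to 6.09 (median 4.45) and 7.61 to 8.35 (median 7.76). The groups of both genes were far apart, with no array of one reaching into the range of the other. Its partner Cd79b differed by -2.78, the complement receptor Cr2 by -2.96, and the adaptor Blnk by -2.45. Ms4a1, which encodes CD20, differed by -2.68.

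Among the surface proteins, the immunoglobulin M receptor Fcmr lay at 3.95 to 5.02 in the 25% mixed field (median 4.67) and at 7.66 to 8.36 after neutron alone (median 7.98), a difference of -3.40 ± 0.23. Chst3, a sulfotransferase of chondroitin, was counted in this list although it is an enzyme. It lay at 0.72 to 1.59 (median 1.22) against 4.76 to 5.46 (median 5.15), a difference of -3.92 ± 0.21 (limma adjusted p = 1.721e-07) and 15.1-fold. Chst3 had the largest fall among the called genes well above background on all 12 arrays. Next came an array transcript with no gene symbol, ENSMUST00000192250 (-3.78), Vpreb3, and the aldehyde dehydrogenase Aldh3b2 (-3.61). Fcer2a, the low-affinity immunoglobulin E receptor, differed by -3.92 but was well above background on 4 of the 6 arrays of the 25% mixed field. Lower too were Fcrla (-3.03), an Fc receptor-like protein of B cells, the BAFF receptor Tnfrsf13c (-2.91), and the surface antigen Ly6d (-2.87). Among the transcription factors, Spib differed by -3.12, Ebf1 by -3.39 with 3 of 6 arrays well above background in the 25% mixed field, Pou2af1, the B-cell coactivator of octamer-binding factors, by -2.40, and Bcl11a by -2.02.

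**Figure D3:**
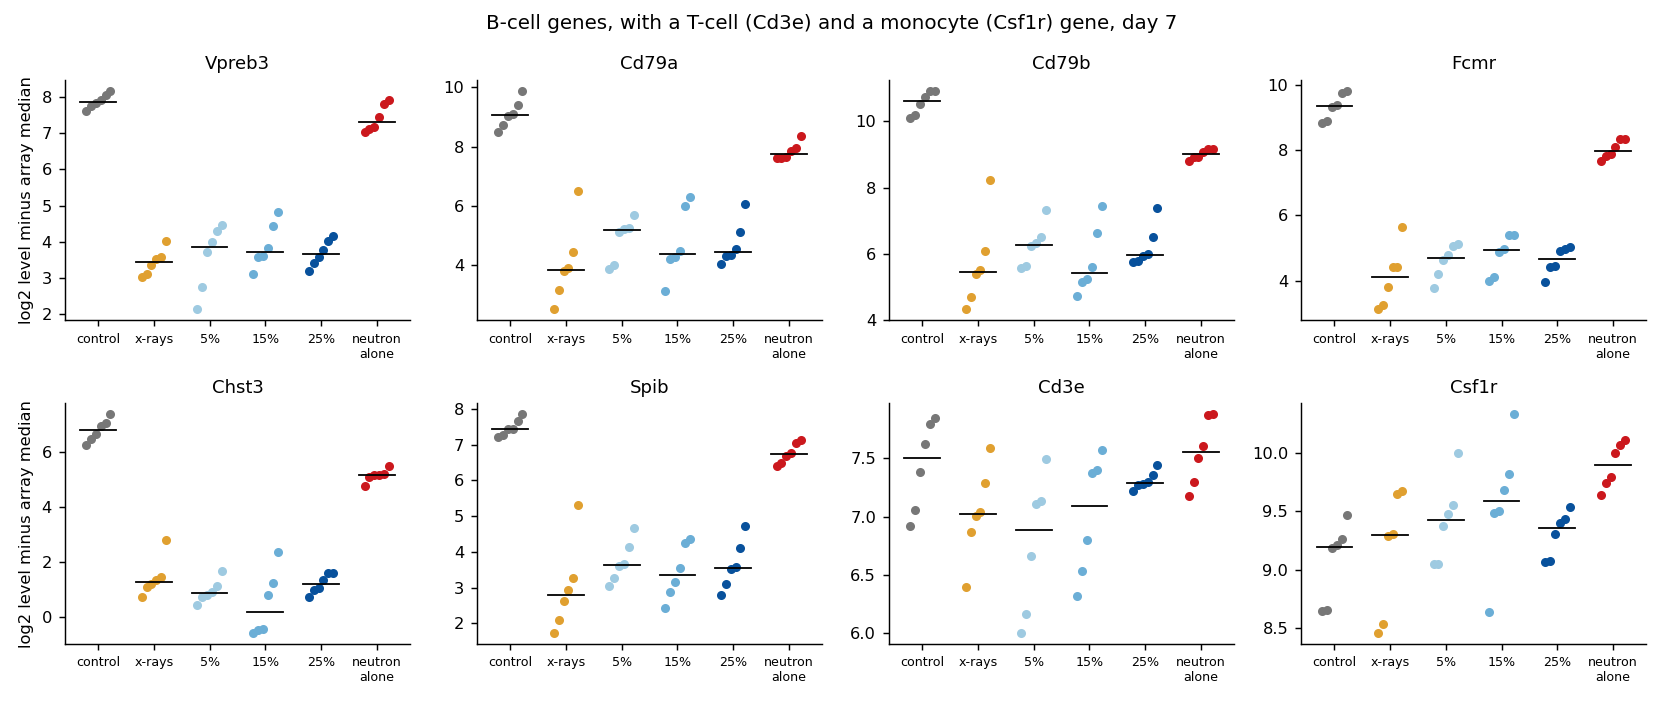
Log2 level, relative to the array median, of Vpreb3, Cd79a, Cd79b, Fcmr, Chst3, and Spib from the B-cell lists, and of Cd3e (T cells) and Csf1r (monocytes), with 1 point per array and a bar at the median of each of the 6 groups of 6. For each of the 6 genes from the B-cell lists the points of the 25% mixed field and of neutron alone do not overlap, and for Cd3e they do.

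Leaving out each of the 12 arrays in turn left 10 genes called lower in the antigen receptor list, 9 to 11 in the surface list, and 5 to 7 among the transcription factors. These falls depended on the scaling and on the background correction. With spike-in centring 13 of the 34 were called lower, against 0.21% of all genes, 26 lay below 0, and the median was -1.27 against 1.01 over all genes. Of the transcription factors 2 were then called, with a median of -0.16. With normexp correction 0 of 30 B-cell genes tested were called, and 13 were lower at an unadjusted p below 0.05, with a median of -0.96 against 0.57 over all genes. No gene of any kind was called lower with this correction (0%). Without 25% mixed field replicates 1 and 4, 26 of the 34 were called lower, against 2.36% of all genes, with a median of -2.16. With the hepatocyte level as a covariate 5 were, against 0.073% of all genes (median -1.84), and on the slide that held both groups 10 were, against 0.345% (median -2.03). With the slide as a block 17 were, against 0.504%.

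The octamer ATTTGCAT is the binding element of the factors that Pou2af1 assists, and is known from immunoglobulin promoters. It was searched on both strands in the 250 bases before the gene start, with RefSeq sequences on build GRCm38.p6. Of the 26 B-cell genes called lower, 20 had a promoter sequence, and 2 of these held the octamer (10%), against 1.81% of 27025 promoters. The 2 promoters, of the Vpreb3 and Blnk genes whose levels are given above, are shown with the octamer in capitals. It began 45 bases before the start in Vpreb3 and 130 bases before it in Blnk.
Vpreb3, chr10:75948050-75948299, plus strand: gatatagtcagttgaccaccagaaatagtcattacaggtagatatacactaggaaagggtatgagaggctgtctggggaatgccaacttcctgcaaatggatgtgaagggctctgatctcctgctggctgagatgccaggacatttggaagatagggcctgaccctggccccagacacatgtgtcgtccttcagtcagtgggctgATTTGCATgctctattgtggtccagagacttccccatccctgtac
Blnk, chr19:40994222-40994471, minus strand: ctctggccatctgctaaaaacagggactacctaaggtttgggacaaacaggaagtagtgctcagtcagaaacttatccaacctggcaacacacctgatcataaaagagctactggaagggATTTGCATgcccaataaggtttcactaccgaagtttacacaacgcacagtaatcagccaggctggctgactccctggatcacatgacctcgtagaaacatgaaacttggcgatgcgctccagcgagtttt

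Some genes of antigen presentation were lower. Of 10 genes of the MHC class II pathway 3 were called lower, against 4.01% of all genes, and 10 lay below 0. Leaving out each array gave 3 to 5, the highest without 25% mixed field replicate 6, and the median of -0.84 became 0.18 with spike-in centring. The 3 were H2-Ob (-2.41) and H2-Oa (-2.14), the chains of the H2-O modulator found mainly in B cells, and H2-DMb2 (-2.39), a chain of the peptide exchange factor. Of 7 plasma cell genes, Mzb1, which B cells also express, was called lower (-1.42), and Sdc1, which followed the hepatocyte level, was called higher (3.46).

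Few genes of T cells, monocytes, and mature neutrophils were called, where 7.33% of all genes were called higher and 4.01% lower. Of 17 genes of the T-cell receptor complex and its co-receptors 1 was called, and their median was 0.02. It was Cd8b1, with a difference of -0.96 that turned to 0.06 with spike-in centring and was called in 1 of 12 fits that left out an array. Cd3e, a chain of the receptor complex chosen after its values were seen, lay at 7.22 to 7.45 in the 25% mixed field and at 7.18 to 7.88 after neutron alone, and the groups overlapped. Of 10 genes of naive T cells and 12 of monocytes 0 were called by limma, and at an unadjusted p below 0.05 these lists gave 3 lower each and 0 higher. Of 12 genes of mature neutrophils 0 were called and 0 had an unadjusted p below 0.05, with a median of -0.01. Their S100a9 and S100a8 differed by -0.14 and 0.09. Of 12 genes of NK and cytotoxic cells 1 was called higher, Cd160, an NK receptor that was well above background on 5 arrays against 0 and was at least 1.60-fold higher. At an unadjusted p below 0.05 by limma 6 of these 12 genes were higher and 0 lower. The median of this list was 0.53, and -0.08 within the slide that held both groups.

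The smaller lists of myeloid cells and progenitors gave few called genes, where 7.33% of all genes were called higher and 4.01% lower. Of 9 genes of secondary and tertiary granules Ngp (1.80), a neutrophil granule protein, was called higher, and of 3 of primary granules 0 were called by limma and 0 had an unadjusted p below 0.05. Of 6 genes of dendritic cells Flt3 (-0.98), a growth factor receptor, was called lower, and it stood at 0.04 with spike-in centring. Of 9 genes of eosinophils, basophils, and mast cells, Prg2 (1.55), a granule protein of eosinophils, was called higher, and the interleukin receptor Il5ra (-1.45) lower. Of 10 genes of blood progenitors, Cd34 (1.5) was called higher, and the transcription factor Myb (-1.05) and Flt3 lower.

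Some genes of dividing cells were higher in the 25% mixed field. Of 23 mitosis genes 4 were called higher and 0 lower, against 7.33% of all genes called higher, with a median of 1.01, and leaving out each array gave 3 to 15, the highest without neutron alone replicate 2. Mki67, the proliferation marker, lay at 8.08 to 9.79 in the 25% mixed field (median 8.85) and at 6.25 to 6.85 after neutron alone (median 6.51), a difference of 2.31 ± 0.26 (SE) and 4.96-fold. The groups did not overlap. Ccnb2, a cyclin of mitosis, differed by 1.61, Incenp, of the chromosomal passenger complex, by 1.24, and its partner Birc5 by 1.21. Without 25% mixed field replicates 1 and 4, 6 of the 23 were called higher, against 7.44% of all genes.

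Of 26 genes of DNA replication 4 were called higher and 1 lower, against 7.33% and 4.01% of all genes. Leaving out each array gave 2 to 6 higher, with 2 without neutron alone replicate 4, 5, or 6 and 6 without replicate 2, and 1 was called within the slide that held both groups. Mcm2 (1.29), a subunit of the replicative helicase, and Rrm2 (1.03), a subunit of ribonucleotide reductase, were higher, as was Mcm10 (2.39), which followed the hepatocyte level. Lig1 (-1.73), the ligase of lagging strands, was lower. Of 38 clustered histone genes 3 were called higher, a share near that of all genes. Of 10 cyclins and regulators of the anaphase-promoting complex 0 were called by limma, with 3 higher and 1 lower at an unadjusted p below 0.05. The CHR element TTTGAA together with CCAAT, which marks promoters of genes of the late cell cycle, was searched on both strands and found in 3 of 7 promoters of called mitosis and replication genes (42.9%), those of Mki67, Ccnb2, and Mcm2, against 6.45% of all promoters.

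Of 17 targets of p53 tested, 5 were called higher and 0 lower, against 7.33% of all genes called higher, with a median of 0.68. Leaving out each array gave 2 without neutron alone replicate 3 and up to 7 without 25% mixed field replicate 5. It was 3 without 25% mixed field replicates 1 and 4, against 7.44% of all genes, and 1 within the slide that held both groups, against 2.14%. With the hepatocyte level as a covariate it was 0, against 0.305% of all genes. Of the 17 targets 1 followed the hepatocyte level, and 4 of the other 16 were called higher. Cdkn1a, which encodes the cell-cycle inhibitor p21, lay at 3.50 to 4.33 in the 25% mixed field (median 3.92) and at 1.22 to 2.65 after neutron alone (median 1.98). The groups did not overlap, and the difference was 1.93 ± 0.26 (SE) and 3.81-fold. Gtse1, which holds p53 in check, was called but was well above background on 0 of 6 arrays of neutron alone, so no fold is given, and the nuclease Aen differed by 0.86. Gdf15, a secreted stress factor outside the rule for named genes and chosen after its values were seen, was well above background on 6 of 6 arrays of the 25% mixed field and on 0 of neutron alone, at least 3.43-fold higher. It stood at 3.64 and 4.25 on 25% mixed field replicates 1 and 4 and at 0.57 to 1.68 on the other arrays of that group. Of 9 BCL2 family genes and 19 genes of double-strand break repair 0 were called by limma, with 0 and 5 higher and 2 and 1 lower at an unadjusted p below 0.05.

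A minority of the genes in each red-cell and platelet list was called, and the counts that follow stand against 7.33% of all genes called higher and 4.01% lower. The globin list held 9 tested genes, among them Ahsp, which is not a globin but the chaperone of free alpha globin. Of these 9 genes 2 were called higher, Hbb-bh1 (3.55), an embryonic beta-like globin, and Ahsp (2.27). Hbb-bh1 lay at 3.47 to 5.51 in the 25% mixed field and at 0.36 to 1.43 after neutron alone, where it was well above background on 3 of 6 arrays. Ahsp lay at 13.11 to 14.85 against 10.86 to 11.92. Neither gene overlapped between the groups. The median over the 9 genes of the list was -0.82, and 1.74 with spike-in centring, and none of the adult globin genes was called. Without 25% mixed field replicate 5, 3 globin genes were called lower, against 10.2% of all genes, and 5 were lower at an unadjusted p below 0.05 with all arrays. Adult globin RNA had been reduced in these samples before labelling, so its levels are not those of the blood.

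Of 10 genes of heme synthesis 2 were called higher, Alad (2.2) and Urod (1.36), both enzymes of the pathway. Of 17 genes of the red-cell membrane 2 were, the adducin Add2 (1.74) and the Ermap (1.20) gene of an erythroid membrane protein, and of 9 erythroid transcription factors and receptors 1, the GATA1 cofactor Zfpm1 (1.28). The motif AGATAA that GATA factors bind was in 0 of 6 promoters of called red-cell and iron genes and in 11.4% of all promoters. Of 10 genes of organelle clearance in reticulocytes 3 were called lower, Ube2l6 (-1.41), a conjugating enzyme, Gabarapl2 (-1.26), an autophagy protein, and the mitophagy receptor Bnip3l (-1.18). The last was called in 2 of 12 fits that left out an array. The median of -0.40 of this list became 0.79 with spike-in centring, where 0 were called lower and 1 higher, and 0 were called within the slide that held both groups. Without 25% mixed field replicate 5, 5 were called lower, against 10.2% of all genes. Without 25% mixed field replicates 1 and 4, 3 genes of heme synthesis, 4 of the membrane, and 3 erythroid factors were called higher, against 7.44% of all genes. In that fit 1 gene of organelle clearance was called lower, against 2.36% of all genes. Of 12 genes of iron handling, Slc11a2 (-1.29), the divalent metal transporter, was called lower, and Tfr2, which followed the hepatocyte level, higher. Of 15 platelet genes 4 were called higher and 0 lower, with a median of 0.65, namely Gp1bb (1.44), Gp1ba (1.27), and Gp6 (1.21), receptors for von Willebrand factor and collagen, and the integrin Itgb3 (1.27). Within the slide that held both groups 0 of the platelet genes were called, while their median there was 0.75.

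**Figure D4:**
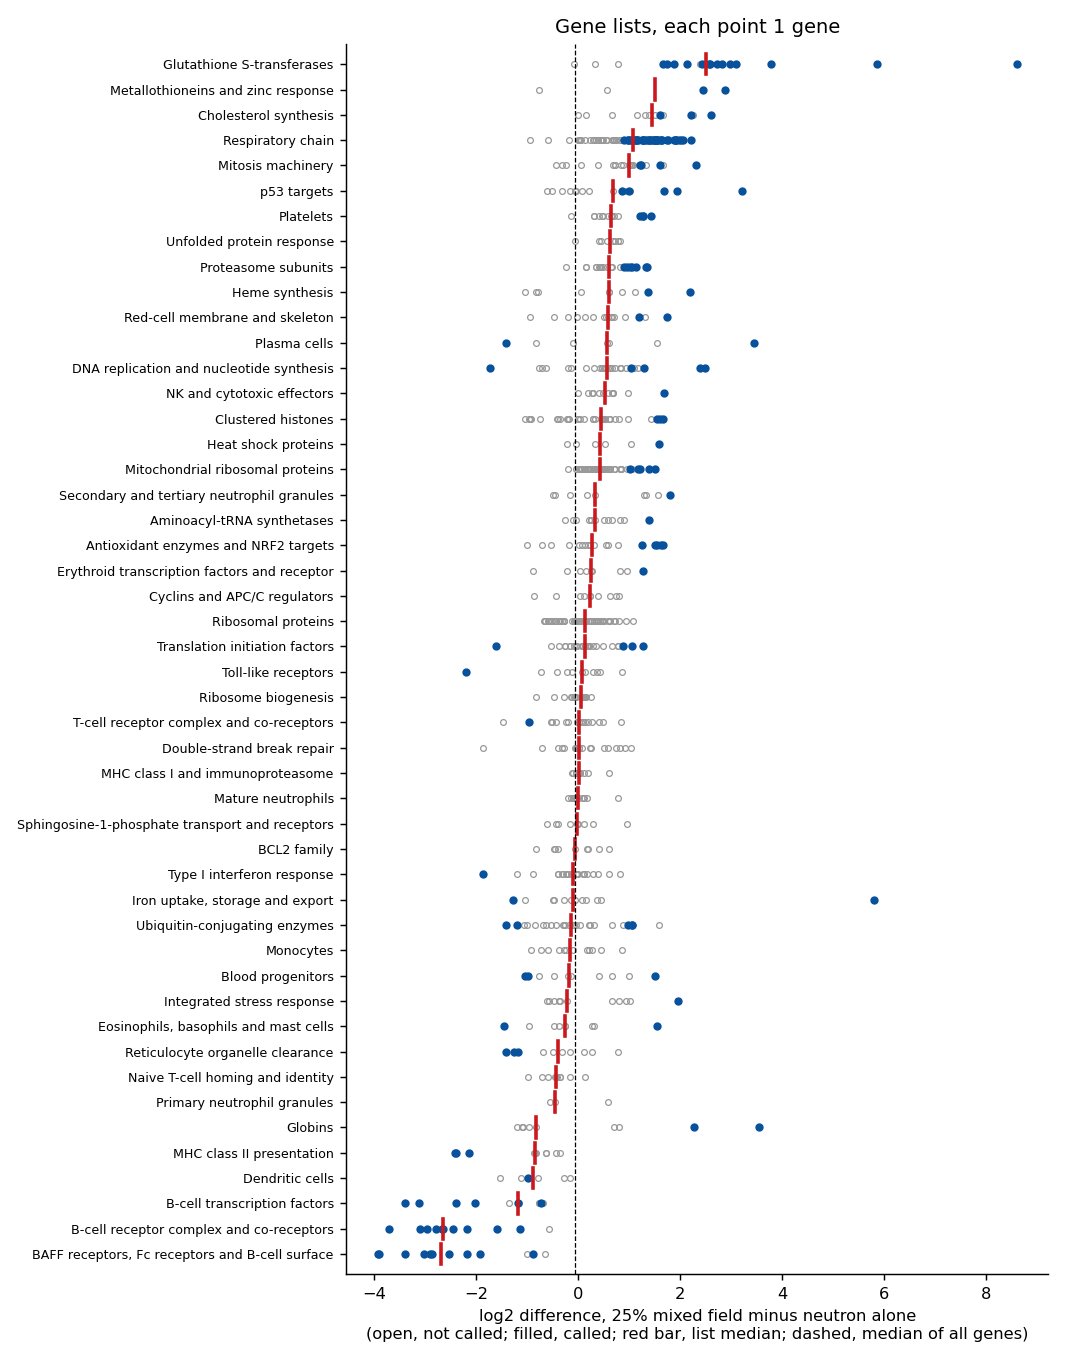
Difference of each tested member of the gene lists, without the hepatocyte, heart muscle, and olfactory receptor lists, between the 25% mixed field and neutron alone on the log2 scale, with called members filled and a mark at the median of each list. Among the lists drawn, the B-cell lists have the lowest medians, at -2.66, -2.70, and -1.18, and glutathione S-transferases the highest at 2.50.

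Genes of the mitochondrial respiratory chain were higher as a group. Of 76 subunits tested 42 were called higher and 0 lower, against 7.33% of all genes, with a median of 1.07, and 3 of the 76 followed the hepatocyte level. Ndufb8, a subunit of complex I, lay at 9.09 to 10.11 in the 25% mixed field (median 9.34) and at 7.37 to 7.47 after neutron alone (median 7.41), and the groups did not overlap. Its difference was 2.02 ± 0.20 (SE) and 4.06-fold. Atp5o and Atp5j, subunits of ATP synthase, differed by 2.21 and 2.06, and Ndufs5, of complex I, by 1.87. Without 25% mixed field replicates 1 and 4, 36 were called higher, against 7.44% of all genes. With normexp correction 4 of 74 were, against 2.23% of all genes, and with the slide as a block 20 of 76, against 247 of 15077 genes. Within the slide that held both groups 1 was called higher, where 2.14% of all genes were, with a median of 1.11. With the hepatocyte level as a covariate 0 were called, where 0.305% of all genes were called higher, with a median of 1.22. Of 63 mitochondrial ribosomal proteins 5 were called higher, a share near the 7.33% of all genes, with a median of 0.43. Without 25% mixed field replicates 1 and 4 their count was 4, against 7.44% of all genes, with a median of 0.10. Of 20 proteasome subunits 7 were called higher with all arrays, among them Psmc5 (1.36) and Psma5 (1.13). Of the mitochondrial ribosomal proteins and the proteasome 0 genes were called within the slide that held both groups or with the hepatocyte level as a covariate.

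Several genes of detoxification were higher too. Of 18 antioxidant genes 5 were called higher, against 7.33% of all genes, and 0 within the slide that held both groups, with Gpx4 (1.67), which reduces lipid peroxides, Prdx1 (1.62), a peroxiredoxin, Sod1 (1.51), the cytosolic superoxide dismutase, and Txn1 (1.25), thioredoxin. Of 18 glutathione S-transferases 14 were called higher, and 14 of the 18 followed the hepatocyte level. It was 9 without neutron alone replicate 2, 3 within the slide that held both groups, and 1 with the hepatocyte level as a covariate. Gstt1, 1 of these, lay at 9.38, 9.73, 9.63, 9.63, 9.48, and 8.54 in replicates 1 to 6 of the 25% mixed field and at 3.73, 3.62, 3.13, 3.36, 3.67, and 3.74 after neutron alone. The groups did not overlap, and 25% mixed field replicate 6 was the lowest of its group. The difference was 5.86 ± 0.23 (SE, limma adjusted p = 5.602e-09), and 6.14 with the hepatocyte level as a covariate (limma adjusted p = 0.0003914). The part of liver RNA in it was not tested. Of 12 genes of cholesterol synthesis 3 were called higher, and 8 of the 12 followed the hepatocyte level.

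The metallothioneins bind zinc and copper and are induced by metals, glucocorticoids, and oxidative stress. Of 4 genes of metallothioneins and zinc response 2 were called higher, against 7.33% of all genes. Mt2 lay at 6.02 to 8.63 in the 25% mixed field (median 6.49) and at 3.54 to 4.03 after neutron alone (median 3.95), a difference of 2.89 ± 0.37 (SE), and Mt1 differed by 2.46. Neither gene overlapped between the groups. Their promoters, on the same build, are shown with the core of the metal response element, TGCACNC, in capitals on either strand. Mt1 held 1 site and Mt2 held 2, while 11.8% of all promoters held it.
Mt1, chr8:94178839-94179088, plus strand: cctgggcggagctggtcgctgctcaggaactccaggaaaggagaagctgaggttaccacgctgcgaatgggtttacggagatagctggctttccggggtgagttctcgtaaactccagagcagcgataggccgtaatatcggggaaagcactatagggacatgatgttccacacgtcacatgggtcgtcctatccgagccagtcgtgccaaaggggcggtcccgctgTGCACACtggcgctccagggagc
Mt2, chr8:94172368-94172617, plus strand: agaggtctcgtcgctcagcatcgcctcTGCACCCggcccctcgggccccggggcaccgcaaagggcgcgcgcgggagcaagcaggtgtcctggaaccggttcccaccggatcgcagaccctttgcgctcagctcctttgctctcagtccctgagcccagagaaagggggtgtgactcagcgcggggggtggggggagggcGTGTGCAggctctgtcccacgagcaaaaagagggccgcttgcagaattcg

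Of 11 genes of the integrated stress response 1 was called higher, the pseudokinase Trib3 (1.97), and of 6 heat shock proteins 1, Hspa1a (1.59). Over all genes 7.33% were called higher. Of 8 genes of the unfolded protein response 0 were called by limma, with 3 higher at an unadjusted p below 0.05. Of 22 interferon response genes 1 was called lower, the transcription factor Irf7 (-1.86), a driver of interferon genes. That share is near the 4.01% of all genes called lower. Of 11 Toll-like receptor genes 1 was called lower, Tlr7 (-2.2), a sensor of single-stranded RNA. Of 10 genes of MHC class I and the immunoproteasome and 9 of sphingosine-1-phosphate signalling 0 were called by limma, with 0 and 1 at an unadjusted p below 0.05.

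**Figure D5:**
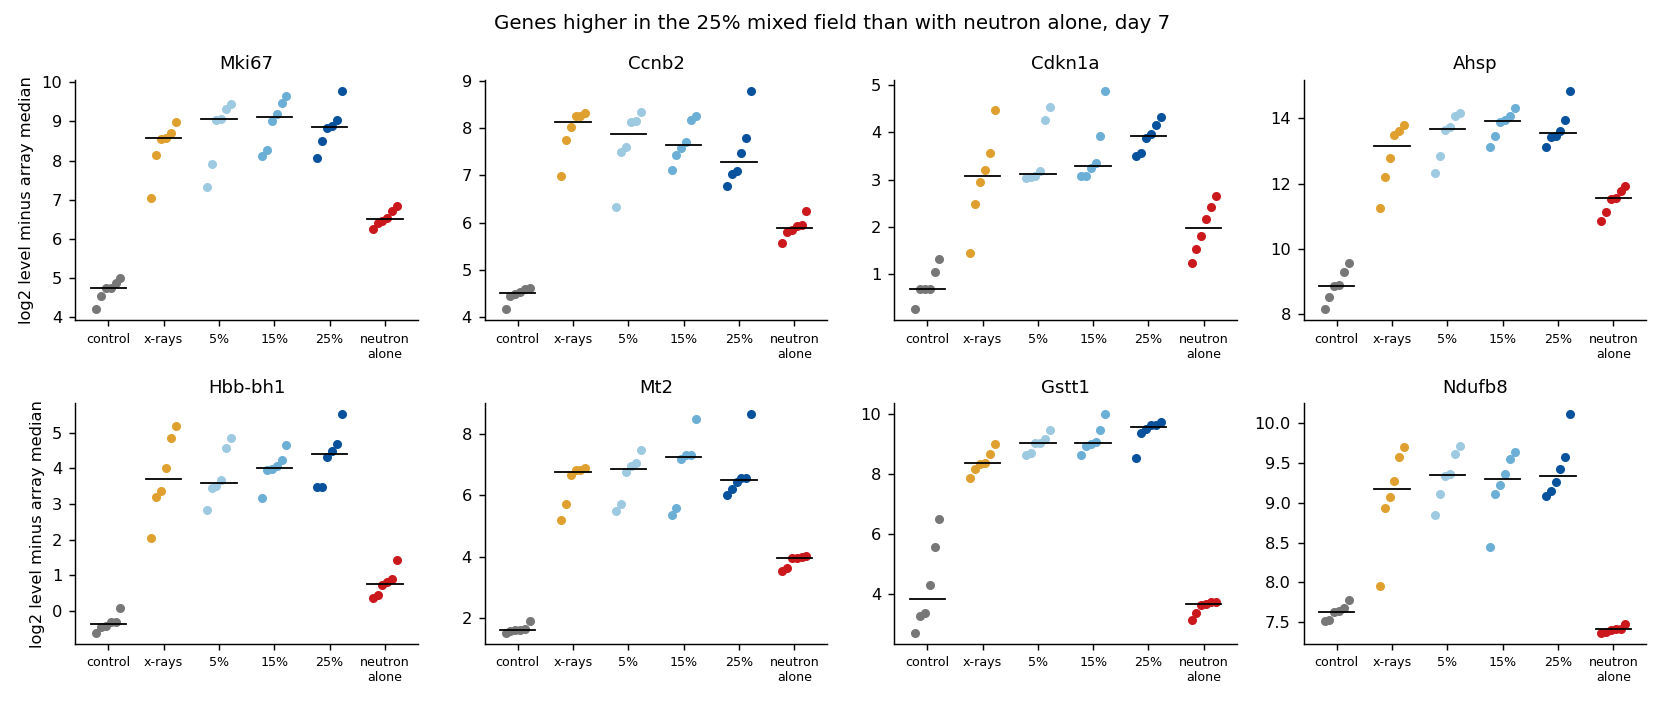
Log2 level, relative to the array median, of Mki67, Ccnb2, Cdkn1a, Ahsp, Hbb-bh1, Mt2, Gstt1, and Ndufb8, with 1 point per array and a bar at the median of each of the 6 groups of 6. For each gene the points of the 25% mixed field lie above those of neutron alone, most widely for Gstt1 at 8.54 to 9.73 against 3.13 to 3.74.

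Few genes of translation were called, where 7.33% of all genes were called higher and 4.01% lower. In each of the gene lists in which limma called 0, the random variance test named in the methods also called 0. Of 59 ribosomal proteins 0 were called by limma, and 9 were higher and 4 lower at an unadjusted p below 0.05, with a median of 0.14. With spike-in centring 32 of 56 were called higher, against 21.8% of all genes, with a median of 1.16. When 25% mixed field replicate 5 was left out, 5 of the 59 were called lower, against 10.2% of all genes. Among the ribosomal proteins, Rpl26 (0.44), Rps19 (0.60), and Rps25 (0.72) had adjusted p values between 0.0893 and 0.263. Of 19 ribosome biogenesis genes 0 were called, with 0 higher and 2 lower at an unadjusted p below 0.05. Of 13 aminoacyl-tRNA synthetases 1 was called higher, Aars, which followed the hepatocyte level. Of 32 translation initiation factors 3 were called higher, among them the scaffold Eif4g1 (1.07), and Eif1 (-1.62) was called lower. Of 26 ubiquitin-conjugating enzymes 3 were called higher and 2 lower. Fzr1 (0.11), Ube2c (-0.43), and Ccna2 (0.24), which act in the control of mitosis, were not called, nor were Add3 (-0.44), Eif2ak4 (-0.37), and Myc (-0.04). Crip2 (1.04) was called higher. Eif3f and Rpl27 were left out by the filter on fold. Of 117 olfactory receptors tested, whose probes were dim, 0 were higher and 8 lower, against 4.01% of all genes called lower, with a median of -1.05. The 8 became 1 without 25% mixed field replicates 1 and 4, against 2.36% of all genes, and 29 without replicate 5, against 10.2%. Leaving out any other array gave 2 to 5.

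Across the 6 groups the B-cell genes of the 25% mixed field lay near those of the other exposures that included x-rays. The median over arrays of the mean level of the antigen receptor list was 7.59 in the controls, 6.28 after neutron alone, and 3.62, 3.96, 3.86, and 3.72 after x-rays and at 5, 15, and 25%. For Fcmr the medians were 9.36, 7.98, 4.11, 4.70, 4.93, and 4.67 in the same order, and for Chst3 6.78, 5.15, 1.27, 0.87, 0.19, and 1.22. Neutron alone thus stood between the controls and the exposures with x-rays in these medians. Mt2 had a median of 1.62 in the controls and 6.75, 6.86, and 7.24 after x-rays and at 5 and 15%, against 3.95 after neutron alone. Gstt1 had medians of 3.84 in the controls and 8.35, 9.04, and 9.03 in those exposures. The respiratory chain list had a median level of 7.38 in the controls and 7.70 after neutron alone, and of 8.26, 8.62, 8.66, and 8.60 after x-rays and at 5, 15, and 25%. The monocyte list had medians between 5.85 and 6.25 in the 6 groups. The 25% mixed field and neutron alone shared no slide or scan session with the other groups. Between these sets of arrays, slide and session cannot be told apart from exposure. Some of the other groups shared slides. A slide that held control replicate 3, x-rays replicate 6, 5% replicate 5, and 15% replicate 3 had an array of each. The mean level of the antigen receptor list there was 7.792, 3.57, 3.866, and 4.502 in that order.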

How the data were processed

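Scanner intensities of single-colour Agilent arrays were used. As deposited by the authors, these intensities are on a linear scale and were corrected for background and spatial trend within each array by Agilent Feature Extraction 12.0.2, with no normalization between arrays. The authors also deposited a table of log2 values, normalized and filtered, which served as an alternative. The precision is limited by 6 arrays per group. Intensities were log2-transformed, spots of a probe were averaged, and the median of each array was set to 0. A probe was kept if it was uniform and exceeded background significantly on more than 75% of the 36 arrays, and if at least 20% of the arrays differed from its median by 1.5-fold or more. The 25% mixed field and neutron alone were compared with limma 3.58.1 (lmFit and eBayes) in R 4.3.3 (statmod 1.5.0, data.table version 1.17.8), without covariates. Each of 3 measures per array was compared between the groups with exact permutation tests. Each label was matched to its array, and 0 columns of values were left unused. The test, checked on simulated data with 50 genes per size of change, found 20% at a log2 change of 1, 84% at 1.5, 82% at 2, and 94% at 3, with 6 false calls among 15077 genes. The simulated noise was independent between genes, without the shared shifts of slide or liver RNA, so the false calls hold for that setting only. Array names were matched to RefSeq symbols for 11301 genes, through synonyms for 574 and accessions for 34, and 3168 kept the array's name.

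Genes named are the 12 largest rises and 12 largest falls among called genes that were well above background on all 12 arrays without overlap, up to 4 called members per list and direction or the 3 brightest where none was called, and the genes that the paper names. A selection of these is given, and Ms4a1, Cd3e, Alb, and Gdf15 were added after their values were seen. The members and lists were chosen with earlier results of these data known, and the hepatocyte and heart lists after the data had been seen. Alternatives were other scalings, background corrections, filters, blocks for slide and replicate number, array weights, the random variance test, the deposited table, and leaving out each array.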

Additional observations from a re-analysis of the deposited data

Results flagged for a closer look

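In a group of 6 arrays, an array was marked when its gap to the nearest other array was larger, as a share of the group's range, than Dixon's critical value for 6 samples. Of 214 groups of values tested, over 101 genes and 6 measures per array, 22 were marked, or 10.3%, while chance marks about 1 in 20. The array of 25% mixed field replicate 5 stood highest of its group in the level of Birc5 (7.86), Bnip3l (14.69), Ccna2 (8.91), Cd8b1 (5.30), Fzr1 (10.31), Mt2 (8.63), Trib3 (5.22), and Ube2c (12.77). The 99th percentile of its probes lay 12.48 above its median, also the highest of the 6. On 25% mixed field replicate 6, Gstt1 was lowest at 8.54 and the heart muscle gene Myl2 highest at 6.32.

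After neutron alone, replicate 2 was highest in Birc5 (6.63), Eif1 (12.24), Gtse1 (-0.78), Irf7 (8.36), and Psmc5 (5.51). Replicate 3 was lowest in Blnk (6.81), Pou2af1 (6.27), and Sdc1 (-1.17), replicate 4 in Add3 (5.45), and replicate 1 in Hspa1a (-1.85). Replicate 1 had the highest number of probes well above background, 18995. The cause of these values was not tested.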

How the results depend on the processing

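Scaling on the 75th percentile or on probes well above background, quantile normalization, an intensity floor, filters over the 12 arrays, averaged probes, the deposited table, a single model over 36 arrays, and the random variance test each gave between 1384 and 1898 genes called, against 1709. Centring on spike-ins gave 3772 (3736 higher, 36 lower) and turned Cd8b1 to 0.0648, Flt3 to 0.0402, and Pttg1 to 1.11. Quantile normalization gave 994 higher and 904 lower, or 47.6% lower against 35.3%. With normexp correction 237 were called, all 237 higher and 0 lower, with 18 lower at an unadjusted p below 0.05 by limma. Genes well above background on all 12 arrays gave 1051 (643 higher). Slide as a block gave 323 (247 higher, 76 lower), and the slide that held both groups 375 (323 and 52). Array weights gave 2628 (1358 lower), and the adjusted p alone 3919 (1951 and 1968). Leaving out each array gave 1323 to 2701 called, 878 to 1158 higher and 414 to 1543 lower, the highest without 25% mixed field replicate 5.

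Chosen after seeing the data, leaving out the 2 arrays richest in hepatocyte transcripts gave 356 lower, and leaving out genes that followed the hepatocyte level 674 higher. The hepatocyte level as a covariate gave 57 (46 higher, 11 lower) and turned Mup2 to -1.02, Ugt2b38 to -1.29, Pcbd1 to -0.91, Asgr2 to -1.36, Cyp2c70 to -0.89, Sdc1 to -0.37, Mcm10 to -0.23, Perp to -0.15, and Idi1 to -0.10, with group ranges of that level that did not overlap. The arrays were not paired by replicate number. Arrays of the same number correlated at 0.034 on average (-0.036 to 0.166), and 1 of 6 correlated best with its own number. The replicate block gave 1411 called. The difference in probes well above background lay between 2035 and 3099 when each array was left out, with a p of 0.0519 without neutron alone replicates 2, 4, or 5, and was 1657 with the significance flag of the scanner software. The cause of these changes was not tested.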
